A study of Mus musculus with 7 samples.

Results

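Transcripts of 9 enzymes and enzyme subunits of the tricarboxylic acid (TCA) cycle, Cs, Idh3a, Idh3b, Idh3g, Ogdh, Suclg1, Sucla2, Fh1 and Mdh2, were followed through 7 RNA-seq libraries of mouse abdominal aorta. These genes were chosen by name, as 9 of the 21878 genes of the deposited tables, and all 9 passed the filter on low counts. The tissue came from male C57BL/6 mice, 8 weeks of age by the labels, exposed for at most 28 days to angiotensin II (Ang II), which raises blood pressure and provokes aneurysms in hyperlipidaemic mice. The libraries were 4 labelled ApoE-/-Nur77-/- (DKO 1 to DKO 4) and 3 labelled ApoE-/- (ApoE 1 to ApoE 3), so that both groups shared the Ang II exposure and the loss of Apoe, which raises plasma cholesterol. They differed by label in Nur77, the nuclear receptor encoded by Nr4a1, and no group without Ang II or with intact Apoe was part of the comparison. The labels give neither the number of mice per library nor the deleted part of each gene, and the p-values measure only the spread between these libraries.

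The TCA cycle runs in the mitochondrial matrix, where it oxidises the acetyl group of acetyl-CoA to CO2 and passes the electrons to the respiratory chain as reduced cofactors. It also supplies citrate, oxoglutarate and oxaloacetate for synthesis, and exchanges intermediates with the cytosol. Brown fat and heart muscle are rich in mitochondria and express these enzymes at high levels, and fat surrounds the abdominal aorta in mice.

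Library totals ran from 19295287 to 21727192 counts, so each of the 9 genes was read with 1328 to 12577 counts per library and counting error was small beside the spread between libraries. The gene that defines the genotype did not follow the labels: Nr4a1 was at 71.5 ± 23.4 CPM (SD, n = 4; CPM are counts scaled to sequencing depth with TMM factors) in the libraries labelled ApoE-/-Nur77-/- and at 120.0 ± 68.5 CPM (SD, n = 3) in the ApoE-/- ones, with an edgeR adjusted p of 0.360 for a log2 fold change of -0.75 (SE 0.42), which was -0.23 without ApoE 1. Apoe, lost by label in both groups, was at 28.7 ± 7.52 CPM (SD, n = 4) and 222 ± 34.4 CPM (SD, n = 3) in the same order of groups (log2 fold change -2.95, edgeR adjusted p = 0.0227). Its fold change lay between -3.07 and -2.77 with any 1 library left out, but it no longer passed the test with ApoE 1 (edgeR adjusted p = 0.159), ApoE 2 (0.0895), ApoE 3 (0.0848), DKO 3 (0.225) or DKO 4 (0.0566) left out. Directions below are those of the labels. Bulk RNA cannot tell fewer cells of a type from less RNA per cell.

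All 9 genes averaged lower in the libraries labelled ApoE-/-Nur77-/-, by 1.54-fold for Ogdh to 2.12-fold for Idh3g, and none passed the threshold of adjusted p under 0.05 with edgeR's quasi-likelihood test (Benjamini-Hochberg over 14609 genes; adjusted p = 0.146 to 0.178). The median log2 fold change of the 9 was -0.85, against -0.021 over all genes tested. Of all genes tested, 0.0274% were called lower and 7.58% had a log2 fold change at or below that of Ogdh, the member nearest to 0. At an unadjusted p under 0.05, 9 of the 9 were lower, against 11.8% of all genes. A fit of log2(FPKM + 1) with limma called 0 of the 9 (0.0332% of its genes lower). Other tools gave other calls, 6 of the 9 lower by DESeq2's Wald test (4.96% of its genes) and 9 of the 9 by limma voom with quality weights per sample (10% of its genes). The summed level of the 9 was 1435, 1365, 1220 and 1813 CPM in DKO 1 to DKO 4, against 2308, 1837 and 3554 CPM in ApoE 1 to ApoE 3. ApoE 3 stood highest, and DKO 4 came within a small margin of ApoE 2. Without ApoE 3 the median log2 fold change was -0.58 and 6 of the 9 had an unadjusted p under 0.05 (6.32% of genes tested then).

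**Figure D1:**
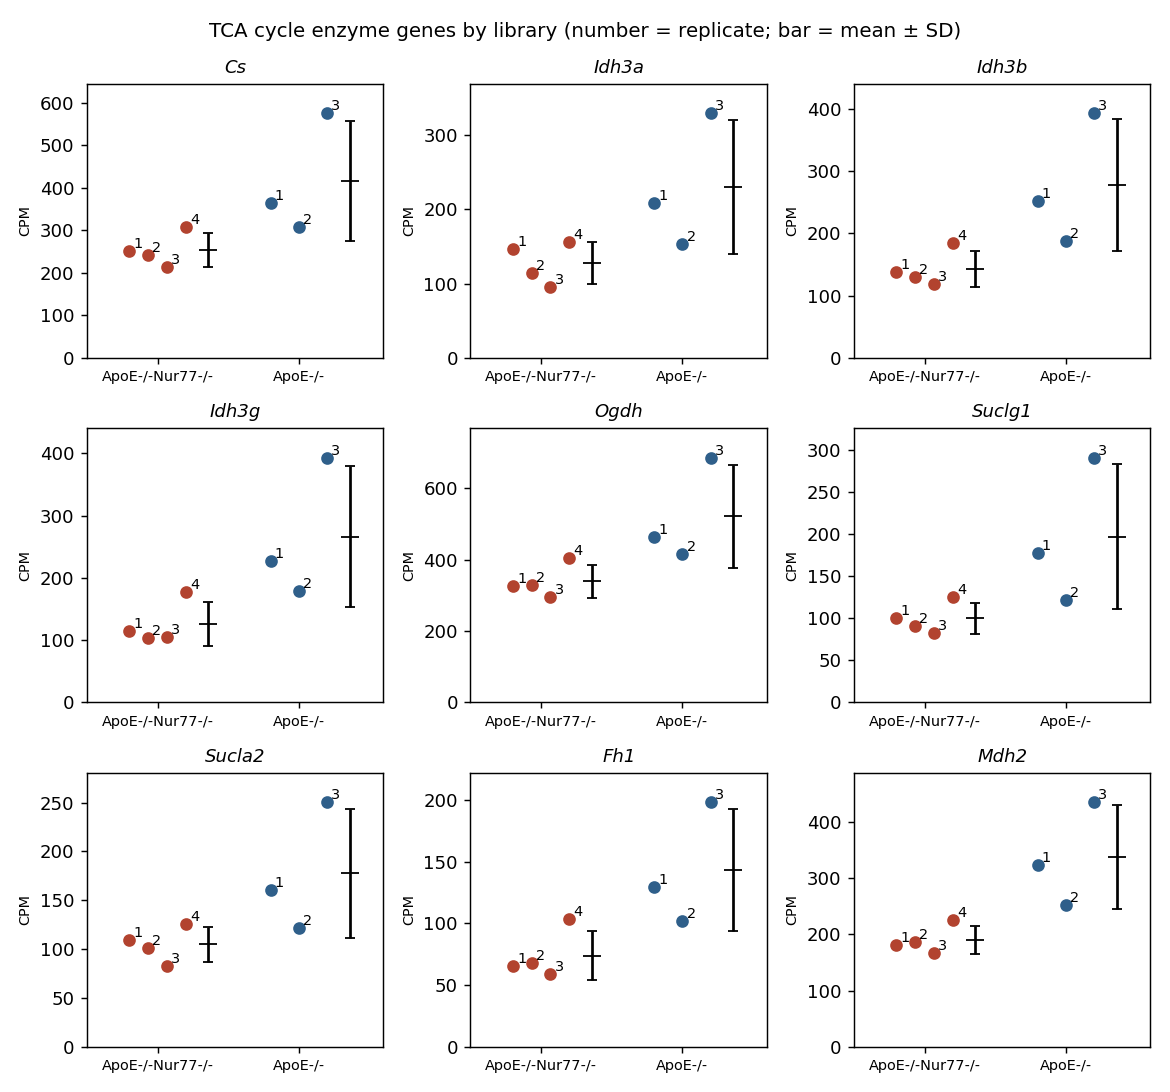
Level of each of the 9 genes (CPM, linear axis from 0) in each library; points are libraries with their replicate number, and the bars beside them are the mean ± SD of 4 libraries labelled ApoE-/-Nur77-/- and 3 labelled ApoE-/-. ApoE 3 is the highest library for 9 of the 9 genes, and DKO 4 lies close to ApoE 2.

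Entry into the cycle is catalysed by citrate synthase (Cs; chromosome 10, 128337727 to 128362482, GRCm38.p6), which joins acetyl-CoA to oxaloacetate. Cs was at 252, 242, 213 and 309 CPM in DKO 1 to DKO 4, against 364, 307 and 575 CPM in ApoE 1 to ApoE 3. The groups overlapped only through DKO 4, which lay just above ApoE 2. The means were 254 ± 40.0 CPM (SD, n = 4) and 416 ± 141 CPM (SD, n = 3), which edgeR fitted as -0.71 on the log2 scale (SE 0.23, adjusted p = 0.173).

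Idh3a, Idh3b and Idh3g encode the alpha, beta and gamma subunits of the NAD+-dependent isocitrate dehydrogenase, which makes oxoglutarate and is a main control point of the cycle. Idh3a (chromosome 9, 54586511 to 54604662) carries the catalytic subunit and was at 147, 114, 95.3 and 156 CPM in DKO 1 to DKO 4, against 208, 153 and 329.7 CPM in ApoE 1 to ApoE 3. Idh3b (chromosome 2, 130279309 to 130284451) was at 138, 131, 119 and 184 CPM in DKO 1 to DKO 4, against 252, 187 and 393 CPM in ApoE 1 to ApoE 3. For Idh3a the groups overlapped by DKO 4 alone, while for Idh3b they stood apart by a margin of a few CPM. Idh3g (chromosome X, 73778963 to 73786897), whose product is a regulatory subunit, was at 115, 104, 105 and 178.0 CPM in DKO 1 to DKO 4, against 227, 178.4 and 393 CPM in ApoE 1 to ApoE 3. DKO 4 almost reached ApoE 2, and the other 3 libraries labelled ApoE-/-Nur77-/- lay well below both. Idh3g had the largest fold change of the 9 (log2 fold change -1.09, SE 0.31, edgeR adjusted p = 0.159), Idh3b had -0.96 (SE 0.26, adjusted p = 0.158) and Idh3a -0.85 (SE 0.28, adjusted p = 0.178).

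Ogdh encodes the first subunit of the oxoglutarate dehydrogenase complex, which turns oxoglutarate into succinyl-CoA. Ogdh (chromosome 11, 6291597 to 6359094) was at 325, 329, 297 and 405 CPM in DKO 1 to DKO 4, against 465, 415 and 686 CPM in ApoE 1 to ApoE 3. The groups did not overlap, and the fold change was the smallest of the 9 at -0.62 on the log2 scale (SE 0.20, edgeR adjusted p = 0.169), for means of 339 ± 46.6 CPM (SD, n = 4) and 522 ± 144 CPM (SD, n = 3).

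Suclg1 and Sucla2 encode the alpha subunit and the ADP-forming beta subunit of succinyl-CoA ligase, the step that makes a nucleoside triphosphate directly. Suclg1 (chromosome 6, 73248505 to 73276907) was at 101, 91.0, 82.7 and 126 CPM in DKO 1 to DKO 4, against 178, 122 and 292 CPM in ApoE 1 to ApoE 3. Sucla2 (chromosome 14, 73552786 to 73596144) was at 109, 101, 83.2 and 126 CPM in DKO 1 to DKO 4, against 161, 121 and 251 CPM in ApoE 1 to ApoE 3. Both genes overlapped through DKO 4 and ApoE 2 alone. The log2 fold changes were -0.98 for Suclg1 (SE 0.29, edgeR adjusted p = 0.162) and -0.76 for Sucla2 (SE 0.25, adjusted p = 0.178).

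The last steps are those of fumarate hydratase (Fh1), which makes malate, and mitochondrial malate dehydrogenase (Mdh2), which restores oxaloacetate. Fh1 (chromosome 1, 175601378 to 175625635) was at 65.9, 67.7, 59.0 and 104 CPM in DKO 1 to DKO 4, against 129.8, 102 and 198 CPM in ApoE 1 to ApoE 3. Mdh2 (chromosome 5, 135778649 to 135790386) was at 181, 186, 167 and 226 CPM in DKO 1 to DKO 4, against 324, 251 and 435 CPM in ApoE 1 to ApoE 3. Fh1 overlapped between groups through DKO 4, and Mdh2 did not overlap. Mdh2 had the smallest p of the 9 (edgeR adjusted p = 0.146, log2 fold change -0.83, SE 0.19), its means being 189.9 ± 25.2 CPM (SD, n = 4) and 337 ± 92.5 CPM (SD, n = 3). For Fh1 edgeR gave -0.95 on the log2 scale (SE 0.27, adjusted p = 0.160).

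In TMM-scaled CPM the groups did not overlap for 4 of the 9 genes (Idh3b, Idh3g, Ogdh and Mdh2), all lower, against 9.24% of all genes tested. That count turned on how DKO 4 and ApoE 2 were scaled, since 5 of the 9 genes were higher in DKO 4 than in ApoE 2. In the deposited FPKM (fragments per kilobase of transcript scaled to sequencing depth, the authors' values) 9 of the 9 did not overlap, against 8.64% of all genes, and in CPM of the unscaled library total also 9, against 9.21%, while in RLE-scaled CPM it was 3, against 8.18%. With ApoE 2 and ApoE 3 both left out it was 9 (26% of all genes). Without DKO 4 the TMM-scaled count was 9 (20.2% of all genes), and without ApoE 2 it was 9 (19.1%).

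The 9 transcripts shared 1 profile over the libraries. After each gene's log2 CPM was centred on its own mean, the mean of the 9 was -0.35, -0.45, -0.61 and 0.0055 in DKO 1 to DKO 4, against 0.38, 0.012 and 1.01 in ApoE 1 to ApoE 3. The libraries thus spanned 1.62 log2 units, while the 9 genes within any library spanned 0.18 to 0.47. ApoE 3 was the highest library for 9 genes, and DKO 3 was the lowest for 8, with Idh3g lowest in DKO 2. The genes lay farthest apart in ApoE 3, between 0.77 for Ogdh and 1.24 for Idh3g, and in DKO 1, where Idh3a lay at -0.12 while Fh1 and Idh3g both lay at -0.53.

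**Figure D2:**
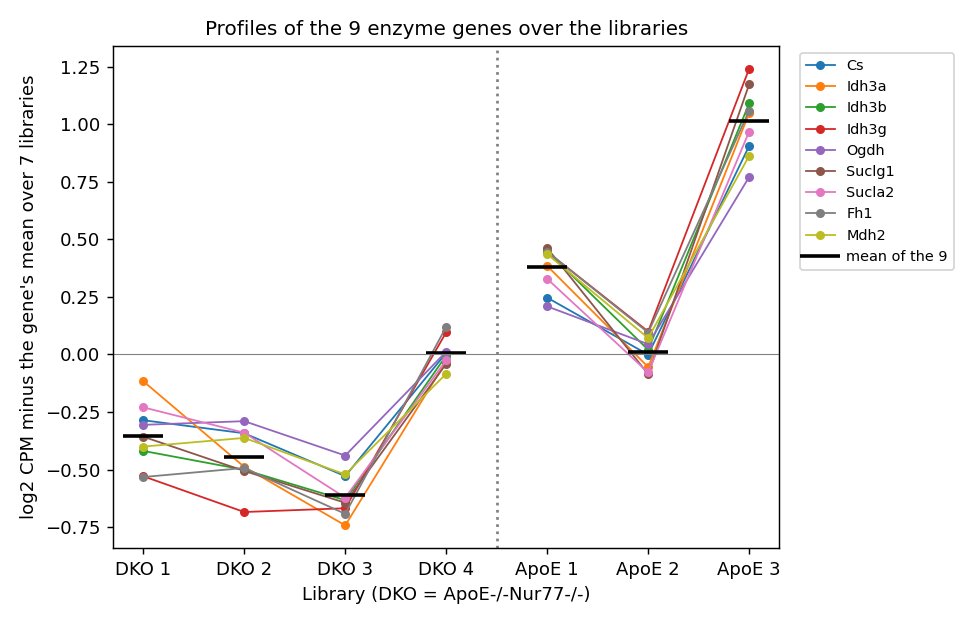
Log2 CPM of each of the 9 genes minus that gene's mean over the 7 libraries, by library; lines join libraries of 1 group and black bars are the mean of the 9 genes. The libraries span 1.62 log2 units, from DKO 3 to ApoE 3, and the genes within a library span at most 0.47.

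Per length, Mdh2 was the most abundant of the 9 and Ogdh the least in every library. Mdh2 had 124, 122, 112 and 143 FPKM in DKO 1 to DKO 4, against 202, 164 and 256 FPKM in ApoE 1 to ApoE 3. Ogdh had 34.3, 34.0, 30.4 and 39.9 FPKM in DKO 1 to DKO 4, against 45.1, 42.8 and 65.9 FPKM in ApoE 1 to ApoE 3. The order of the group means below Mdh2 was Cs (78.7 FPKM), Idh3b (68.2), Suclg1 (65.7), Idh3g (56.7), Idh3a (48.2), Sucla2 (41.6) and Fh1 (40.6) in the libraries labelled ApoE-/-Nur77-/-. Neighbours in that order, Mdh2 and Ogdh included, stood the same way round in 4 of 4 libraries, except Idh3g over Idh3a and Sucla2 over Fh1, which did so in 3. In the libraries labelled ApoE-/- the order was Suclg1 (123 FPKM), Idh3b (122), Cs (122), Idh3g (114), Idh3a (84.4), Fh1 (72.0) and Sucla2 (70.1). Neighbours stood the same way round in 3 of 3 libraries, except Suclg1 over Idh3b in 1, and Idh3b over Cs and Fh1 over Sucla2 in 2.

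As shares of the summed FPKM of the 9, the 9 transcripts differed little between libraries. Mdh2 took 22.6 ± 1.19% (SD, n = 4) of the sum in the libraries labelled ApoE-/-Nur77-/- and 21.9 ± 1.99% (SD, n = 3) in those labelled ApoE-/-. Idh3g took 10.1 ± 0.98% (SD, n = 4) and 11.6 ± 0.68% (SD, n = 3), Cs 14.1 ± 0.55% and 12.7 ± 0.68%, and Ogdh 6.22 ± 0.29% and 5.39 ± 0.46% in the same order of groups. The shares overlapped between groups for each of the 9, DKO 4 lying among the libraries labelled ApoE-/- for these last 3 genes.

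**Figure D3:**
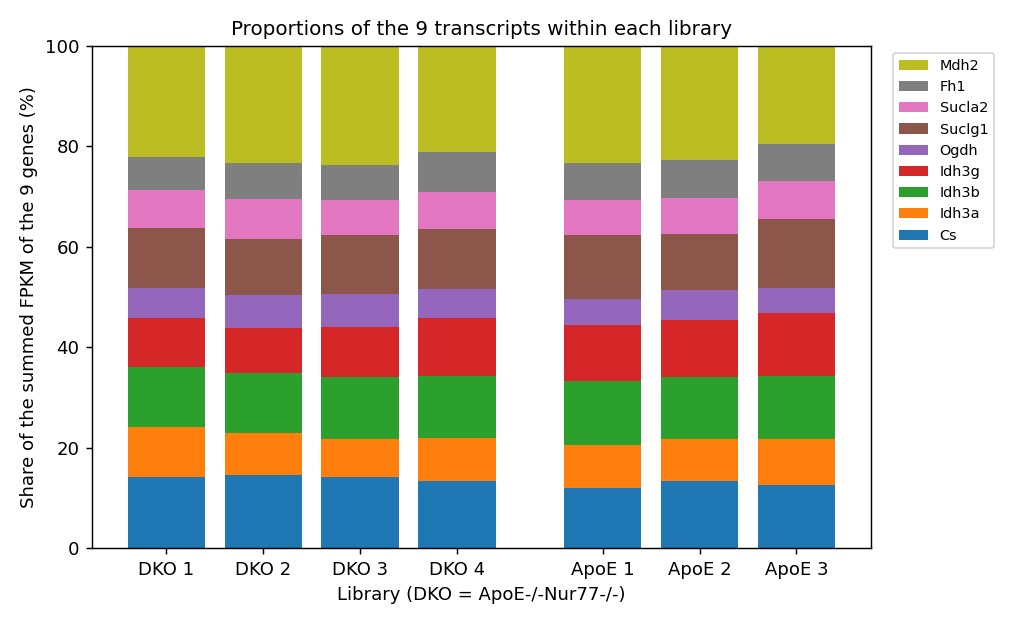
Share (%) of each gene in the summed FPKM of the 9 genes, stacked for each library, with the 4 libraries labelled ApoE-/-Nur77-/- left of the 3 labelled ApoE-/-. Mdh2 takes 19.6 to 23.7% and Ogdh 5.04 to 6.48% in every library.

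Subunits of 1 complex were compared as ratios of FPKM within a library, 4 ratios in all, chosen after the values had been seen. The Idh3b to Idh3a ratio was 1.43 ± 0.17 (SD, n = 4) in the libraries labelled ApoE-/-Nur77-/- and 1.46 ± 0.070 (SD, n = 3) in those labelled ApoE-/- (exact two-sided permutation p = 0.771). The Idh3g to Idh3a ratio was 1.18 ± 0.18 (SD, n = 4) and 1.35 ± 0.028 (SD, n = 3; exact permutation p = 0.229), and it was lowest in DKO 1 at 0.979. The Sucla2 to Suclg1 ratio was 0.634 ± 0.045 (SD, n = 4) and 0.580 ± 0.050 (SD, n = 3; exact permutation p = 0.200). A difference was not shown for these 3 ratios. Suclg2 encodes the GDP-forming beta subunit, which competes with Sucla2 for the alpha subunit, and the Sucla2 to Suclg2 ratio was 3.73, 3.98, 3.18 and 4.26 in DKO 1 to DKO 4, against 5.42, 4.28 and 7.05 in ApoE 1 to ApoE 3. The groups were parted by a margin far below the spread within them, DKO 4 lying next to ApoE 2. The exact two-sided permutation p was 0.0286, the smallest that 35 assignments allow, and 0.114 after Benjamini-Hochberg adjustment over the 4 ratios. Suclg2 itself averaged 50.6 ± 4.93 CPM (SD, n = 4) and 59.8 ± 7.74 CPM (SD, n = 3), and its log2 fold change of -0.24 was nearer to 0 than that of any of the 9 (SE 0.12, edgeR adjusted p = 0.302).

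The remaining 9 enzymes of the mitochondrial cycle had a median log2 fold change of -0.68, 9 of 9 negative, and 0 passed edgeR's test (8 at an unadjusted p under 0.05, 5 with DESeq2, 7 with voom). Of all genes, 0.0274% were called lower by edgeR and 11.8% were lower at an unadjusted p under 0.05. DESeq2 called 4.96% of its genes lower and voom 10%. The counts in the lists below stand against these same shares. Idh2, the NADP+-dependent mitochondrial isocitrate dehydrogenase, had the smallest p among them (edgeR adjusted p = 0.146, log2 fold change -0.56, SE 0.13), with means of 96.2 ± 8.08 CPM (SD, n = 4) and 142 ± 25.4 CPM (SD, n = 3).

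Upstream of the cycle, 12 genes of pyruvate entry had a median log2 fold change of -0.64, 9 negative and 3 positive, and 0 passed edgeR's test (8 lower at an unadjusted p under 0.05, 4 with DESeq2, 7 with voom). Pdk2, a kinase that switches off pyruvate dehydrogenase, averaged 56.0 ± 9.25 CPM (SD, n = 4) and 108 ± 30.8 CPM (SD, n = 3), or -0.95 on the log2 scale (SE 0.21, edgeR adjusted p = 0.136). Mpc1, a subunit of the pyruvate carrier, named after its value was seen, lay at -1.13 (SE 0.28, adjusted p = 0.152). The 3 positive genes were the kinases Pdk1 and Pdk3 and the phosphatase Pdp1, at log2 fold changes of 0.05, 0.25 and 0.06, none of them at an unadjusted p under 0.05.

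**Figure D4:**
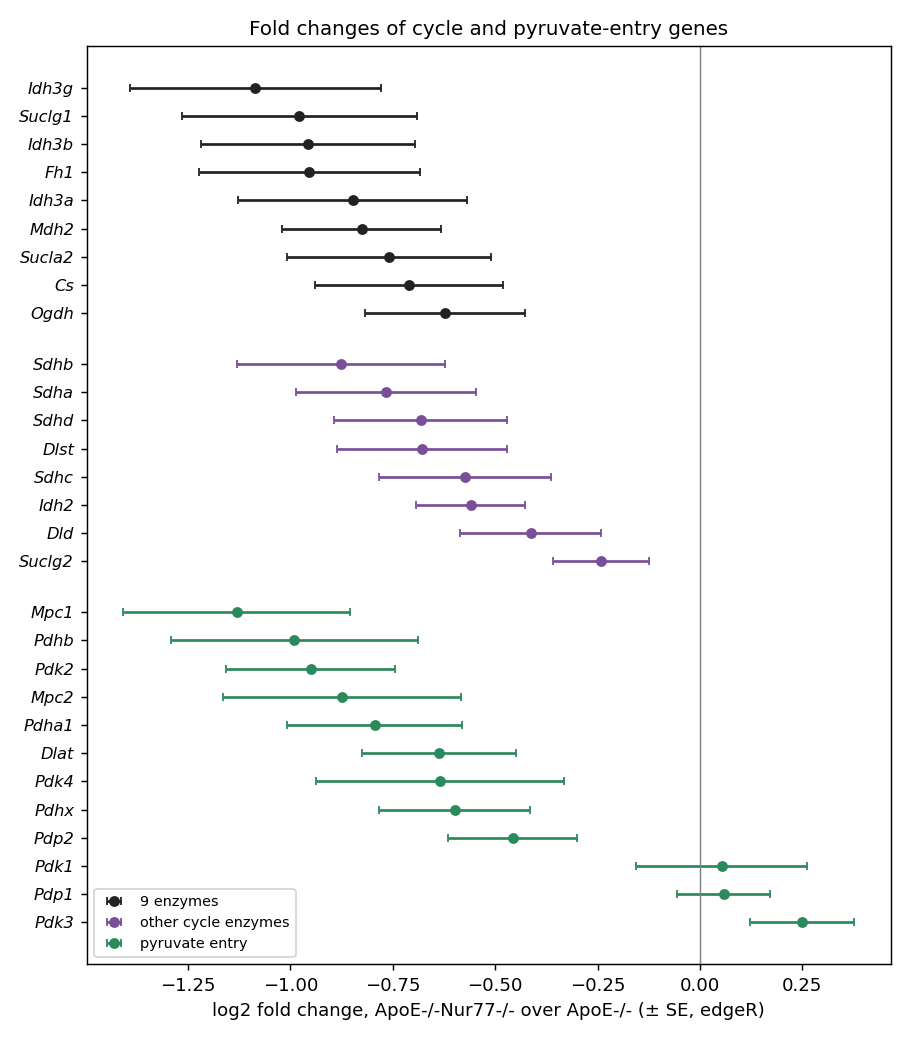
Log2 fold change (libraries labelled ApoE-/-Nur77-/- over libraries labelled ApoE-/-) with its SE from edgeR for the 9 genes (black), other cycle enzymes (purple) and 12 genes of pyruvate entry (green). The 9 genes lie between -1.09 and -0.62, Suclg2 lies at -0.24, and 3 pyruvate-entry genes lie above 0.

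Around the cycle, genes of anaplerosis and carriers were less uniform than cytosolic counterparts. The 9 genes of anaplerosis and transamination had a median log2 fold change of -0.10, 0 passed edgeR's test (3 lower at an unadjusted p under 0.05, 2 with DESeq2, 2 with voom), and they ranged from -1.16 to 0.26. Pck1, the cytosolic phosphoenolpyruvate carboxykinase of glyceroneogenesis in fat, was at 448, 368, 431 and 531 CPM in DKO 1 to DKO 4, against 917, 768 and 973 CPM in ApoE 1 to ApoE 3 (edgeR adjusted p = 0.110, log2 fold change -0.996, SE 0.15). The 5 cytosolic counterparts had a median of -0.70 (0 with edgeR, 4 lower at an unadjusted p under 0.05, 3 with DESeq2, 3 with voom). They were negative in 5 of 5, from -0.78 to -0.23, Mdh1 of the malate shuttle with -0.75 (SE 0.20, edgeR adjusted p = 0.158). Of 6 carriers of cycle intermediates 5 were tested, with a median of -0.26 (0 with edgeR, 2 lower at an unadjusted p under 0.05, 2 with DESeq2, 2 with voom). Of these, 4 were negative and 1 was positive. The positive gene was Slc25a13, named after its value was seen, at 0.86 (SE 0.44, edgeR adjusted p = 0.317). It averaged 4.61 ± 2.13 CPM (SD, n = 4) and 2.53 ± 0.35 CPM (SD, n = 3). Slc25a10, the dicarboxylate carrier, averaged 34.8 ± 3.25 CPM (SD, n = 4) and 61.2 ± 10.5 CPM (SD, n = 3), or -0.82 on the log2 scale (SE 0.13, edgeR adjusted p = 0.111).

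General markers of mitochondria, such as import receptors, porins and prohibitins, lay nearer to 0 than the 9 enzymes. The 12 had a median log2 fold change of -0.19, 12 of 12 negative, and 0 passed edgeR's test (4 at an unadjusted p under 0.05, 0 with DESeq2, 4 with voom). Phb, a prohibitin of the inner membrane, had the smallest p, with -0.60 on the log2 scale (SE 0.19, edgeR adjusted p = 0.171). Their summed level was 1009, 1050.2, 955 and 1037 CPM in DKO 1 to DKO 4, against 1179, 1079 and 1313 CPM in ApoE 1 to ApoE 3. The difference between the lists was not tested.

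Of 10 regulators of mitochondrial genes 9 were tested, with a median log2 fold change of -0.87 (0 with edgeR, 5 lower at an unadjusted p under 0.05, 4 with DESeq2, 4 with voom). Ppargc1a, the coactivator PGC-1alpha, was at 4.79, 3.23, 4.48 and 4.70 CPM in DKO 1 to DKO 4, against 8.18, 13.6 and 13.6 CPM in ApoE 1 to ApoE 3 (log2 fold change -1.45, SE 0.24, edgeR adjusted p = 0.114). Unlike the 9 enzymes it was as high in ApoE 2 as in ApoE 3. Named after their values were seen, Nrf1 and Tfam, which drive nuclear genes of respiration and mitochondrial DNA transcription, had log2 fold changes of -0.04 (SE 0.09, adjusted p = 0.836) and -0.14 (SE 0.09, adjusted p = 0.441). Without ApoE 3 the medians were -0.38 for the other cycle enzymes, -0.35 for the cytosolic counterparts and -0.33 for the regulators.

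Promoter windows from RefSeq (GRCm38.p6; 250 bases before to 50 after a gene's start) were searched on both strands because the 9 genes kept 1 profile and Nur77 binds DNA. The table matched 8 of the 9 genes with 13 windows, 6 of them for Ogdh; Idh3a was not matched. The Nur77 monomer element NBRE (AAAGGTCA) was in 0 of the 13 windows and in 1.51% of all 32851 windows. The element of estrogen-related receptors (TCAAGGTCA) was in 0 and in 0.423%, the palindromic NRF1 motif in 0 and in 0.971%, and the ETS motif bound by GABPA (CCGGAAGT) in 0 and in 3.89%. With its middle base free, the NRF1 motif was in 1 window, that of Sucla2, and in 4.60% of all windows. The letters AAGGTCA that NBRE and the estrogen-related receptor element share, a search added later, were in 1 window, an Ogdh window, and in 4.72% of all. Printed are these 2 windows with the match in capitals, and that of Idh3g, the gene with the largest fold change, which holds no match. In the Ogdh window the capitals are the opposite strand's AAGGTCA and span the annotated start, and in the Sucla2 window they begin 17 bases before it.
Sucla2 (chr14:73552536-73552835, plus strand): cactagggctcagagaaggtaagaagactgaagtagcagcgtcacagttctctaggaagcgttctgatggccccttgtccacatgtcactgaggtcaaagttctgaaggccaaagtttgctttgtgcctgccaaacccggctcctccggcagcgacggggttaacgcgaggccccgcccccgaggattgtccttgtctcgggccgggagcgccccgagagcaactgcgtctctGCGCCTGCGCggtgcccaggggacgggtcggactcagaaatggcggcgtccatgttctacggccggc
Ogdh (chr11:6291920-6292219, plus strand): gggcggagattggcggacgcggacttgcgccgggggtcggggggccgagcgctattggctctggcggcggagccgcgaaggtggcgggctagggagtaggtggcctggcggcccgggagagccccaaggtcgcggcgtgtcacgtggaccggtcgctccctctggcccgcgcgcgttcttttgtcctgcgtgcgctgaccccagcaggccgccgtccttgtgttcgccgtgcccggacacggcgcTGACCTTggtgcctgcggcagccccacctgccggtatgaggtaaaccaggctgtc
Idh3g (chrX:73786848-73787147, minus strand): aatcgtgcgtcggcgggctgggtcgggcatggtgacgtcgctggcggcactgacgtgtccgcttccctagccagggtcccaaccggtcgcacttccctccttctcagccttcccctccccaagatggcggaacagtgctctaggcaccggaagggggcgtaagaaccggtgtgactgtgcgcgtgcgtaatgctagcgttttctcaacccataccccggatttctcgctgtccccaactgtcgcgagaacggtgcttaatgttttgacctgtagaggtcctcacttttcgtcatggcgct

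The summed fat markers were also lower in the libraries labelled ApoE-/-Nur77-/-. The 9 brown adipocyte markers summed to 598, 374, 339.9 and 713 CPM in DKO 1 to DKO 4, against 1216, 749 and 2074 CPM in ApoE 1 to ApoE 3, and the order of the 7 libraries was that of the summed enzymes. None of these markers was at 0 in any library, and Ucp1, the uncoupling protein that defines brown fat, was at 256, 105, 72.1 and 198 CPM in DKO 1 to DKO 4, against 469, 242 and 796 CPM in ApoE 1 to ApoE 3. The 10 white adipocyte markers summed to 5437, 4839, 5589 and 7472 CPM in DKO 1 to DKO 4. In ApoE 1 to ApoE 3 they summed to 9860, 9589 and 12416 CPM. Their library order was not that of the enzymes, since DKO 3 lay above DKO 1 and DKO 2. White and brown markers had median log2 fold changes of -0.93 (10 of 10 negative) and -1.45 (9 of 9 negative), with 0 passing edgeR's test in either list (10 and 7 at an unadjusted p under 0.05, 8 and 7 with DESeq2, 7 and 7 with voom). Prdm16 of the brown list, named after its value was seen, lay at -0.04 (SE 0.33, edgeR adjusted p = 0.958). It was highest in DKO 4 at 91.5 CPM, so it did not keep the library order of the sum. The brown list also holds Ppargc1a, counted among the regulators too, and Cox8b and Cox7a1, which themselves encode subunits of the respiratory chain. Fabp4, a fatty acid binding protein of adipocytes, lay at -1.21 on the log2 scale (SE 0.23, edgeR adjusted p = 0.124). Without ApoE 3 the median was -0.96 for the brown and -0.82 for the white adipocyte markers. The part of these cell types in the enzyme levels was not tested.

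The 10 cardiomyocyte markers summed to 54.7, 77.2, 48.4 and 106 CPM in DKO 1 to DKO 4, against 82.5, 422 and 1435 CPM in ApoE 1 to ApoE 3. Only ApoE 2 and ApoE 3 stood apart. Most of the sum in DKO 4 and ApoE 1 came from Ryr2 (56.4 and 37.0 CPM) and Actc1 (28.4 and 19.7 CPM). Both were named after their values were seen. Ryr2 lay nearest to 0 of the markers tested, at a log2 fold change of -0.23 (SE 0.37, edgeR adjusted p = 0.776). The log2 fold changes of the 8 tested had their median at -3.58 (0 with edgeR, 7 lower at an unadjusted p under 0.05, 4 with DESeq2, 0 with voom), or -2.19 without ApoE 3 and 0.16 without ApoE 2 and ApoE 3. Myh6, the atrial and adult myosin heavy chain, was at 8.19, 4.88, 0.0888 and 0 CPM in DKO 1 to DKO 4, against 1.34, 116 and 481 CPM in ApoE 1 to ApoE 3. Myl7, an atrial light chain, was at 0 in DKO 4 and ApoE 1, and Nppa, the atrial peptide, was at 0 in DKO 1, DKO 3, DKO 4 and ApoE 1. With ApoE 2 and ApoE 3 both left out, the median log2 fold change of the 9 enzymes was -0.77, with 9 of 9 negative and 6 at an unadjusted p under 0.05 (5.61% of genes tested then). That fit holds 1 library labelled ApoE-/-, assumed to vary like those labelled ApoE-/-Nur77-/-, and 0 genes passed it (edgeR adjusted p = 0.559 to 0.569 for the 9 enzymes).

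**Figure D5:**
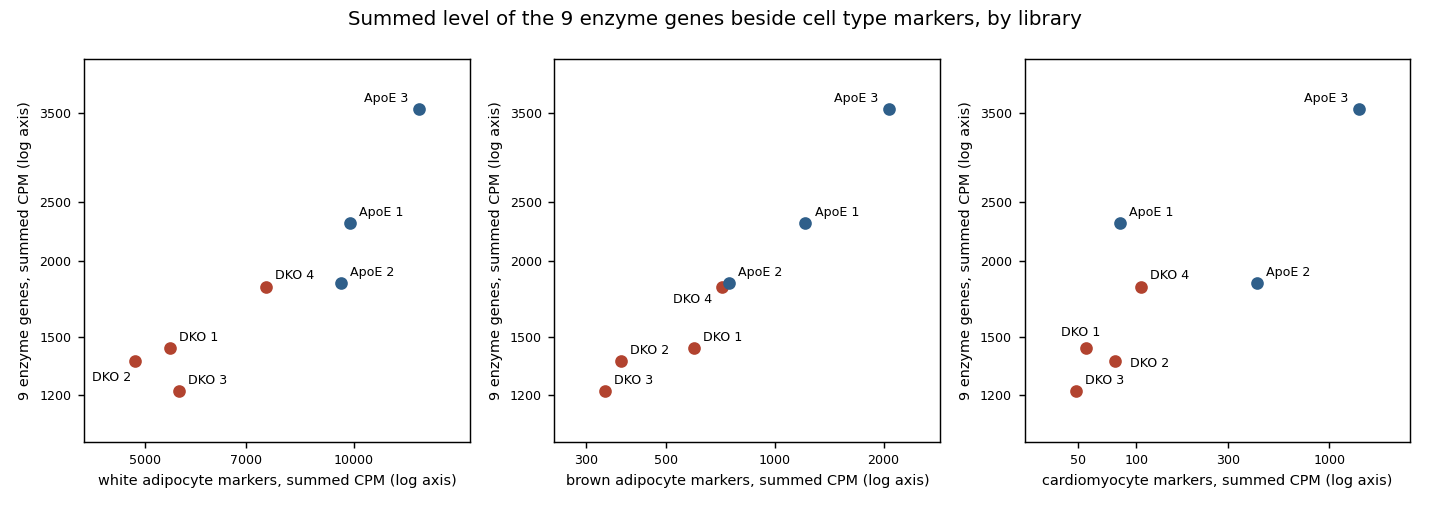
Summed CPM of the 9 enzyme genes (log axis) against the summed CPM of 10 white adipocyte, 9 brown adipocyte and 10 cardiomyocyte markers (log axes), with 1 point per library; red points are labelled ApoE-/-Nur77-/- and blue points ApoE-/-. The enzyme sum follows the brown adipocyte sum in library order, and ApoE 1 is high in enzymes at 82.5 CPM of cardiomyocyte markers.

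Smooth muscle and macrophage markers followed another library order than the enzymes. The 8 smooth muscle markers, which define the aortic media and were abundant in every library, summed to 8078, 13302, 14540 and 29249 CPM in DKO 1 to DKO 4, against 23887, 15331 and 20215 CPM in ApoE 1 to ApoE 3, so DKO 4 was highest. Their median log2 fold change was -0.27 (0 of 8 at an unadjusted p under 0.05, 0 with edgeR, DESeq2 or voom), and Acta2, smooth muscle actin, had -0.25 (SE 0.43, edgeR adjusted p = 0.792) and 0.016 without DKO 1. The 8 macrophage markers summed to 3517, 2627, 4132 and 1947 CPM in DKO 1 to DKO 4, against 2427, 2784 and 1824 CPM in ApoE 1 to ApoE 3, lowest in ApoE 3 and DKO 4 and highest in DKO 3. Their median log2 fold change was 0.38, or 0.22 without ApoE 3 (0 with edgeR, 0 at an unadjusted p under 0.05, 0 with DESeq2, 2 higher with voom, which called 6.17% of all genes higher), Lyz2 among them, the lysozyme of myeloid cells, with 0.41 (SE 0.32, adjusted p = 0.510). The 8 adventitial fibroblast markers had a median of -0.41 (0 with edgeR, 4 lower at an unadjusted p under 0.05, 4 with DESeq2, 3 with voom) and differed among themselves, 5 negative and 3 positive. Col1a1, a collagen chain, had 0.32 (SE 0.29, edgeR adjusted p = 0.577). Named after its value was seen, Pi16, a marker of adventitial fibroblasts, was at 300.1, 261, 339 and 430.0 CPM in DKO 1 to DKO 4, against 729, 745 and 1260 CPM in ApoE 1 to ApoE 3, without overlap (log2 fold change -1.45, SE 0.25, adjusted p = 0.115). Dpt, Cd34, Dcn and Ly6a, named likewise, lay at -0.52, -0.52, -0.43 and -0.40, while Pdgfra and Lum lay at 0.24 and 0.23. The 10 skeletal muscle markers summed to 9.99 to 80.6 CPM in the libraries labelled ApoE-/-Nur77-/- and to 19.3 to 124 CPM in those labelled ApoE-/-. The 9 tested had a median of -0.16, or 0.88 without ApoE 3 (0 at an unadjusted p under 0.05, 0 with edgeR, DESeq2 or voom), and Ckm, muscle creatine kinase, had -2.02 on the log2 scale (SE 0.87, edgeR adjusted p = 0.253), or -0.56 without ApoE 3.

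Among genes outside the 9, the 5 whose centred log2 CPM lay nearest to the mean profile of the 9 over 7 libraries were Cox7b, Cisd1, Sdhb, Cox5a and Atp5o, at root mean square differences of 0.034, 0.040, 0.047, 0.048 and 0.048 log2 units. The median over all genes tested was 0.564. The 9 enzymes, whose own values made that profile, lay at 0.052 (Idh3b) to 0.153 (Idh3g). Of all genes tested, the other enzymes of the 9 included, 157 lay nearer to that profile than Idh3g. The log2 fold changes of the 5 nearest genes were -0.90, -0.87, -0.88, -0.95 and -0.85 (SE 0.23 to 0.25, edgeR adjusted p = 0.157 to 0.161).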

How the data were processed

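Polyadenylated RNA was sequenced from TruSeq Stranded mRNA libraries, per the labels' protocols. The submitters' processing notes name Trimmomatic, HISAT2, HTSeq, Cufflinks and DESeq and the build GRCm38.p6; for versions, annotation, strand setting and filters, the details were not given in the sources used here. The authors deposited raw gene counts, not normalized, and FPKM values, which the authors had scaled by transcript length and sequencing depth. Genotype and number in each column name gave its sample.

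Counts were tested with edgeR 4.0.16 (R 4.3.3): filterByExpr (minimum count 10), TMM, quasi-likelihood test of 4 libraries against 3, Benjamini-Hochberg over 14609 genes. SE was taken as the size of the log2 fold change divided by the root of its F statistic. DESeq2 1.42.0 and limma 3.58.1 served as alternatives, and the other alternatives were RLE scaling, other count filters, a replicate block, libraries left out, and log2 FPKM with pseudocounts of 1 and 0.1. No pair of libraries agreed within sampling noise (chi-square per gene at least 30.4). The test was tested on simulated data.

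The 9 genes and all lists were chosen with earlier results of these data known. Named genes were the 9; per list up to 2 called genes, otherwise the smallest p; per marker list the gene of highest mean CPM; the 5 nearest profiles; Nr4a1 and Apoe. Coordinates are RefSeq's. Values of 1 gene of the cycle lists, counted in them, are not reported here.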

Additional observations from a re-analysis of the deposited data

Results flagged for a closer look

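Among 30 named genes, the 4 libraries labelled ApoE-/-Nur77-/- were checked for a library far from the others. Chance alone finds such a library in about 5% of such groups. It was found for 2 of the 30 genes, Idh3g and Sdhb, which is close to the share that chance alone gives. Sdhb lay near the mean profile of the 9 enzymes, Idh3g among them, so the 2 genes are not separate finds. Idh3g was at 178.0 CPM in DKO 4, against 104 to 115 CPM in DKO 1 to DKO 3. Sdhb, a subunit of succinate dehydrogenase, was at 163 CPM in DKO 4, against 106 to 115 CPM in DKO 1 to DKO 3. DKO 4 was also the highest of its group for the other 8 enzymes. It had its group's highest summed level for brown adipocyte (713 CPM), white adipocyte (7472 CPM), cardiomyocyte (106 CPM) and smooth muscle markers (29249 CPM). Its summed level was the lowest of its group for macrophage (1947 CPM) and adventitial fibroblast markers (9939 CPM). The part of these cell types in its enzyme levels was not tested.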

How the results depend on the processing

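The 9 enzymes had negative log2 fold changes under all 17 alternatives, with a median of -1.07 to -0.58 when 1 library was left out at a time and of -0.96 to -0.76 under the others. Of the 9, 0 were called lower in the edgeR and FPKM fits, which called 0 to 0.0332% of all genes lower, and 0 were called higher in any fit, while DESeq2's Wald test called 6 lower and limma voom 9. With the replicate block the median was -0.90 and 0 were called, and the call of Apoe was lost (adjusted p = 0.0978), as it was in unfiltered FPKM (0.0597) and without ApoE 2 and ApoE 3 (0.383). In the replicate block DKO 4 stood alone under its number, so it added nothing to the fold changes of that fit. Across genes the deviations of same-numbered libraries from their group means correlated at -0.27, 0.68 and 0.060. Those of differently numbered libraries correlated at -0.70 to 0.46. Deviations sum to 0 within a group, so these values cannot settle whether equal numbers pair the libraries. The count of genes whose groups did not overlap (4) was 9 in CPM of the unscaled library total, in FPKM, and with ApoE 2 and ApoE 3 left out together, 3 in RLE-scaled CPM, all added after the data were seen, and 4 to 9 with 1 library left out. The sign turned for Acta2 (-0.69 to 0.016 with 1 library left out), and for Myh6 (1.29) and Ckm (0.088) without ApoE 2 and ApoE 3. The cause was not tested, except that leaving out those libraries removes the ones with most Myh6.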

Other observations

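The deposited table annotates 29 genes to the TCA cycle, of which 26 were tested; this wider list was taken up after the data were seen. All 26 had negative log2 fold changes (median -0.73, and -0.42 without ApoE 3), and 0 passed edgeR's test. An unadjusted p under 0.05 was found for 21, including the 9 enzymes, against 11.8% of all genes. The groups did not overlap for 14, of which 4 were among the 9, against 9.24% of all genes. DESeq2 called 15 lower, 6 of them among the 9 (4.96% of its genes). With limma voom it was 21, including all 9 (10% of its genes). Those nearest to 0 were Ogdhl, a relative of Ogdh (2.72 CPM in libraries labelled ApoE-/-Nur77-/-, against 2.90 CPM in those labelled ApoE-/-; log2 fold change -0.10, SE 0.79), and Sdhaf2, an assembly factor of succinate dehydrogenase (33.7 against 36.5 CPM; log2 fold change -0.12, SE 0.10).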
